A study of Homo sapiens with 24 samples.

Results

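Genes of stromal and endothelial cells were followed under H4K20me3, the trimethylated lysine 20 of histone H4, in HN-SCC-151, a head and neck squamous carcinoma line without HPV. The 7 genes were taken from a list: ACTA2, FAS, PECAM1, DCN, LUM, KERA and EPYC, out of 19866 protein-coding genes placed on the chromosomes. They were selected on the values described here, their length under peaks in the libraries of both arms, so every value of the 7 is given as a description and carries no test. They occupy 3 places in the genome, since DCN, LUM, KERA and EPYC are neighbours on chromosome 12 and the spans of ACTA2 and FAS overlap on chromosome 10. The 7 genes are therefore not 7 independent observations.

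The mark was read by CUT&RUN, in which a nuclease bound to an antibody cuts out the marked chromatin for sequencing, with 500000 cells in each reaction. Wild-type cells were given DMSO (3 libraries) or A-196 at 2.5 µM, an inhibitor of the H4K20 methyltransferase SUV420H1 and of its paralog SUV420H2 (3 libraries). In a second arm they received a control siRNA, siNC (4 libraries), or siSUV420H1 siRNAs (4 libraries), and treatment in both arms lasted 6 days. All 14 libraries come from 1 cell line, and the series' design text gives 3 dishes for each condition, fewer than the 4 libraries of each siRNA group. The arms used different IgG controls, so a difference between DMSO and siNC cannot be told apart from a difference between the arms' preparations. In these bulk samples, fewer cells carrying a domain and less mark in each cell cannot be told apart.

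H4K20me3 is laid down by the SUV420H enzymes on nucleosomes that already carry H4K20me1 and is a mark of compact, silent chromatin at repeats and at some gene clusters. DCN, LUM, KERA and EPYC encode decorin, lumican, keratocan and epiphycan, small leucine-rich proteoglycans that bind collagen fibrils or cartilage matrix and are made by fibroblasts, corneal keratocytes and chondrocytes. ACTA2 encodes smooth muscle alpha-actin, found in smooth muscle, pericytes and myofibroblasts, and PECAM1 encodes CD31, an adhesion molecule at endothelial cell junctions. FAS encodes the death receptor CD95 and is no stromal marker: epithelial cells also use it, and it stands here because its annotated span runs over ACTA2. RNA was not analysed here, so whether any of the 7 genes was silent in these cells was not tested.

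Each library was represented by a list of broad peaks on hg38, and the value of a gene is the length of its RefSeq span plus 2 kb on each side that lay under peaks, in kb. The word marked is used for a length of at least 200 bp. Peak ends lay on a grid of 1000 bp and no peak was narrower than 5 kb, so values move in steps of about 1 kb. The lists hold no read counts and the depth behind a peak is unknown, so a gene at 0 kb may carry signal too weak to be called. Covered length of the whole genome was 145 to 153 Mb with DMSO, 79.6 to 107 Mb with A-196, 183 to 193 Mb with siNC and 118 to 130 Mb with siSUV420H1. These totals move in the same direction as most differences below. Scaled to equal totals, the knockdown difference over the chromosome 12 stretch was -6.19 kb in place of -21.25 kb. At ACTA2 and FAS it was -6.66 kb in place of -8 kb, and at PECAM1 -5.81 kb in place of -7 kb. At these genes every siSUV420H1 library stood at 0 kb, which scaling leaves unchanged, so scaling could not remove those differences. A-196 replicate 2 stood apart in peak number, with 13464 peaks against 8505 and 9798 in replicates 1 and 3. In covered length replicate 1 was lowest, at 79.6 Mb against 104 and 107 Mb in replicates 2 and 3. Results on the members that rest on replicate 2 are given with and without it. Of 14 squamous epithelial genes looked up for comparison, 3 or 4 were marked with DMSO, 1 or 2 with A-196, 2 or 3 with siNC and 1 with siSUV420H1.

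ACTA2 (chromosome 10, 88935074 to 88991337) and FAS (chromosome 10, 88964050 to 89017059) shared 1 domain that every control library carried and no treated library did. The peaks lay within 88970001 to 88980000, inside the 27.3 kb common to both annotated spans, so the covered length of the 2 genes was the same in each library and cannot be told apart. It was 10, 9 and 8 kb in DMSO replicates 1 to 3 and 8 kb in each of the 4 siNC libraries. The stretch from 88971001 to 88979000 lay under a peak in all 7 control libraries. With siSUV420H1 all 4 libraries stood at 0 kb. With A-196, replicates 1 and 3 stood at 0 kb and replicate 2 at 5 kb, but that peak lay elsewhere, at 88986001 to 88991000. Without replicate 2 the difference with A-196 was -9 kb in place of -7.33 kb. The groups did not overlap in either arm: the mean went from 9 kb ± 1 with DMSO to 1.67 kb ± 2.89 with A-196 (SD, n = 3), and from 8 kb to 0 kb in the siRNA arm, with no spread within either siRNA group. Per length, the domain took up 14.9% of the extended ACTA2 span with DMSO and 13.3% with siNC.

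RefSeq lists 2 start sites for ACTA2 and 3 for FAS in the sequence table used here, and none of them lay under a peak in any control library. The control domain lay 17.2 to 18.2 kb from the downstream ACTA2 start (88952773, minus strand) and 10.8 to 11.8 kb from the FAS start at 88990798 (plus strand). The upstream ACTA2 start (88991337, minus strand) and the last FAS start (88991431, plus strand) face opposite directions, and their 300-base windows share 193 bases. The single peak of A-196 replicate 2 covered the FAS starts at 88990798 and 88990914 and ended 0.337 kb from the upstream ACTA2 start. Windows around starts were rarely under a peak anywhere: of 22175 such windows of coding genes, 3.8% to 4.31% held one in DMSO libraries and 3.4% to 3.56% in siNC libraries. The 250 bases before 2 of these starts are printed because the control domain leaves both uncovered and the A-196 replicate 2 peak reaches only the second. Both come from RefSeq on GRCh38.p14 and read 5′ to 3′ on the gene's own strand. Capitals mark CArG-like elements in ACTA2, binding sites of the kind used by serum response factor, and the GC box GGGCGG in FAS, a site of the kind bound by Sp1.
ACTA2 (chr10:88952774-88953023, minus strand): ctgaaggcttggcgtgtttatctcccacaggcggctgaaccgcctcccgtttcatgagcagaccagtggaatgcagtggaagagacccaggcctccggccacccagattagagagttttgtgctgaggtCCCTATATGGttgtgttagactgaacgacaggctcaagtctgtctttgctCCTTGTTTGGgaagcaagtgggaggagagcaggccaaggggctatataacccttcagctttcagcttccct
FAS (chr10:88990548-88990797, plus strand): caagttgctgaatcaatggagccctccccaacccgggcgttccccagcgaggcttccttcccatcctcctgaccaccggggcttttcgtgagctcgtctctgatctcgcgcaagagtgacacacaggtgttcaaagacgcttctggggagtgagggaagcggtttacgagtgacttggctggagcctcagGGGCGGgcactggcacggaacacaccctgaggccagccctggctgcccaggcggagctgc
A CArG-like element here is a CArG box in which 1 of its central letters may be any base; this looser form was adopted after the strict CArG box had no match in these windows. ACTA2 held 2, at 121 to 112 and 71 to 62 bases before the start, and 6.67% of the 22175 coding-gene windows of the same length held at least 1. The strict CArG box was found in 1.18% of those windows. GGGCGG, searched on both strands, occurred once in the printed FAS sequence and in 53.7% of all windows. CpG sites numbered 6 in the ACTA2 sequence and 14 in that of FAS, against a median of 16. These letter matches describe the sequence and are not evidence of binding.

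**Figure D1:**
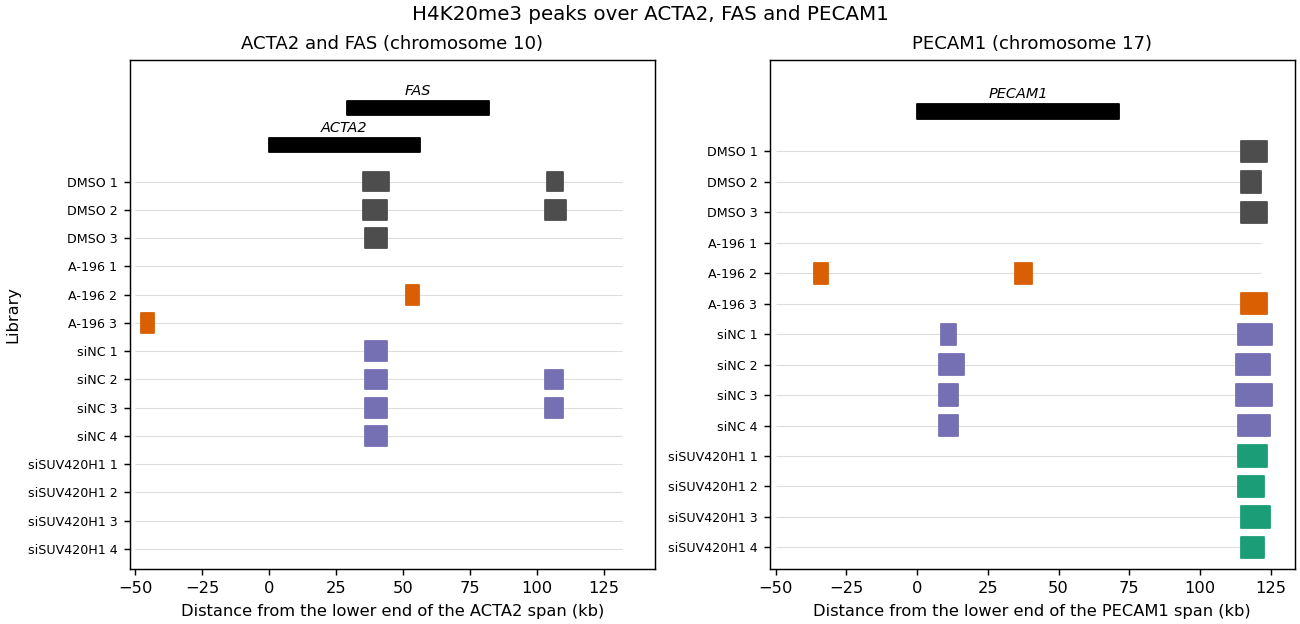
H4K20me3 peaks (coloured bars) in each of the 14 libraries over ACTA2 and FAS (left) and PECAM1 (right), against the distance in kb from the lower end of the ACTA2 or PECAM1 span; black bars are annotated gene spans, and peak regions within 50 kb of them are drawn. The domain in the ACTA2 and FAS overlap is present in 7 of 7 control libraries and absent from 7 of 7 treated libraries, and the domain inside PECAM1 is present only in the 4 siNC libraries.

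Around ACTA2 and FAS the other peaks were less regular. A region beyond the upper end of FAS (89038001 to 89046000, 20.9 kb away) held a peak in 2 of 3 DMSO and 2 of 4 siNC libraries and in no treated library. A-196 replicate 3 had a peak of 5 kb in STAMBPL1 (88887001 to 88892000), a deubiquitinase gene next to ACTA2, which no other library had. The shared control domain was thus the one region of the 4 within 50 kb that was present in all 7 control libraries.

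PECAM1 (chromosome 17, 64319415 to 64390860) was under a peak in siNC cells and not in DMSO cells. Covered length was 5, 9, 7 and 7 kb in siNC replicates 1 to 4, with 64328001 to 64333000 common to all 4, and 0 kb in each DMSO library. All 4 siSUV420H1 libraries stood at 0 kb, below every siNC library, so the mean went from 7 kb ± 1.63 to 0 kb (SD, n = 4). A-196 replicates 1 and 3 stood at 0 kb and replicate 2 at 6 kb, from a peak at 64354001 to 64360000 that overlapped none of the siNC peaks. In the inhibitor arm the groups overlapped, at 0 kb in DMSO cells against 2 kb ± 3.46 under A-196 (SD, n = 3), and without replicate 2 the difference was 0 kb. The most regular domain near the gene lay outside it, in the gap towards MILR1, a mast cell immunoglobulin-like receptor gene (64432001 to 64445000, 41.1 kb beyond PECAM1). It held a peak in all 7 control libraries, in all 4 siSUV420H1 libraries and in A-196 replicate 3 alone. Its length was 8.33 kb ± 1.15 with DMSO, 12 kb ± 0.816 with siNC and 9.25 kb ± 0.957 with siSUV420H1. The domain in PECAM1 and the one beside it therefore differed in the knockdown: 4 of 4 libraries lacked the first and 4 of 4 kept the second. The difference between the 2 domains was not tested.

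The 4 proteoglycan genes on chromosome 12 span 219 kb from the lower end of EPYC to the upper end of DCN, and in the control libraries most of the mark lay between the genes rather than on them. Over that stretch and 2 kb on each side, peaks covered 20, 15 and 16 kb in DMSO replicates 1 to 3 and 0, 5 and 0 kb in A-196 replicates 1 to 3. They covered 48, 48, 46 and 53 kb in siNC replicates 1 to 4 and 28, 30, 24 and 28 kb in siSUV420H1 replicates 1 to 4. Every treated library was below every control library of its arm. Without A-196 replicate 2 the difference with A-196 was -17 kb in place of -15.3 kb. The mean went from 17 kb ± 2.65 to 1.67 kb ± 2.89 with A-196 (SD, n = 3) and from 48.8 kb ± 2.99 to 27.5 kb ± 2.52 in the knockdown (SD, n = 4). The siNC libraries carried more of the mark here than the DMSO libraries, in the same direction as their larger genome totals.

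Of the 10 peak regions within 50 kb of the cluster, 4 held a peak in all 7 control libraries, and genome-wide 15.3% of 31426 merged regions did. The first of the 4 lies 21.7 kb below EPYC (90931001 to 90942000), beyond the small gene CCER1. It held no peak with A-196 and 1 peak among the 4 siSUV420H1 libraries. Of the others, one lies in EPYC, one between KERA and LUM, and one 7.18 kb beyond DCN (91190001 to 91202000). These had a peak in all 4 siSUV420H1 libraries and, in that order, in 1, 0 and 1 of the 3 A-196 libraries. The A-196 library with a peak differed: replicate 2 in EPYC and replicate 1 beyond DCN.

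EPYC (chromosome 12, 90963682 to 91004972) was the one gene of the cluster marked in all controls. Its covered length was 7, 6 and 6 kb in DMSO replicates 1 to 3 and 0, 5 and 0 kb in A-196 replicates 1 to 3, so every A-196 library was below every DMSO library, by 1 kb at the closest. The means were 6.33 kb ± 0.577 and 1.67 kb ± 2.89 (SD, n = 3), a difference of -4.67 kb, or -6.33 kb without replicate 2. In the siRNA arm it was 9, 10, 9 and 9 kb in siNC replicates 1 to 4 and 8, 9, 9 and 9 kb in siSUV420H1 replicates 1 to 4. These groups overlapped, and the difference of -0.5 kb was no larger than the spread of 0.5 kb between replicates of either group. Scaled to equal genome totals it turned to 3.29 kb, with siSUV420H1 at 10.1 to 11.9 kb and siNC at 7.27 to 8.15 kb. The stretch from 90986001 to 90991000 lay under a peak in 12 of the 14 libraries. Where ACTA2 and FAS were at 0 kb in all 4 siSUV420H1 libraries, EPYC thus kept its domain there. The start of EPYC (91004972, minus strand) lay 14 kb from the peaks in all 3 DMSO libraries and 12 to 13 kb from them in siNC. The 250 bases before it are printed for contrast with the starts on chromosome 10, also from RefSeq on GRCh38.p14 and 5′ to 3′ on the gene's strand. Capitals mark TATAAA, the core of a TATA box, and ATTGG, the reverse complement of CCAAT.
EPYC (chr12:91004973-91005222, minus strand): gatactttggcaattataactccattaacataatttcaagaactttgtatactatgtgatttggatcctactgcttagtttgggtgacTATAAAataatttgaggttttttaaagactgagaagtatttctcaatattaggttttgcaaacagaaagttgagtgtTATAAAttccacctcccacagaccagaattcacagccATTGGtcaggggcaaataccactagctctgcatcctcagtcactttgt
It held 0 CpG sites and was 35.6% G and C, against medians of 16 sites and 62% over all windows. TATAAA was found 2 times, ending 157 and 80 bases before the start, and 9% of all windows held it on either strand. CCAAT was found once, and 32.7% of all windows held it. Strict and loose CArG boxes and GGGCGG were not found in these letters. Upstream sequences of PECAM1, DCN, LUM and KERA are not shown.

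KERA (chromosome 12, 91050491 to 91058024) was at 0 kb in all 14 libraries, and 66.9% of coding genes were marked in none of them. LUM (chromosome 12, 91102629 to 91111494) was at 0 kb in all 6 libraries of the inhibitor arm. In the siRNA arm LUM was at 5.49, 0.372, 0 and 0 kb in siNC replicates 1 to 4, and at 0.372 kb in siSUV420H1 replicates 1, 3 and 4 and 1.37 kb in replicate 2. Apart from siNC replicate 1, the values above 0 come from the upper edge of the domain between KERA and LUM, which ends 0.629 kb short of the LUM span at its widest. That domain covered 10.7 kb ± 2.08 with DMSO, 15.5 kb ± 0.577 with siNC and 14.8 kb ± 0.957 with siSUV420H1, and had no peak in any A-196 library. The 4 siSUV420H1 libraries are called marked for LUM on that edge alone, and the value of siNC replicate 1 comes from a peak of 8 kb (91108001 to 91116000) that no other library had. The difference of -0.84 kb between the siRNA groups turned to 0.498 kb without that library.

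DCN (chromosome 12, 91140484 to 91182817), like PECAM1, was marked in all siNC libraries and in no DMSO library. It was at 6, 5, 8 and 8 kb in siNC replicates 1 to 4, with 91165001 to 91170000 in common, and at 0 kb in all 4 siSUV420H1 libraries. The mean went from 6.75 kb ± 1.5 to 0 kb (SD, n = 4), and the groups did not overlap. All DMSO and all A-196 libraries were at 0 kb. Between LUM and DCN a further region (91119001 to 91132000) held a peak in all 4 siNC libraries, at 9.75 kb ± 0.957, in siSUV420H1 replicate 1 alone, and in no library of the inhibitor arm.

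The regions of the chromosome 12 stretch were split by the DMSO libraries, which take no part in the siRNA contrast. Lengths were taken as called, without scaling to genome totals. Only the regions in EPYC and between KERA and LUM had a peak in every DMSO library. Regions with a peak in every DMSO library covered 24.8 kb ± 0.957 with siNC and 23.5 kb ± 1.29 with siSUV420H1 (SD, n = 4), a difference about as large as the spread. All other regions covered 24 kb ± 3.37 with siNC and 4 kb ± 2.71 with siSUV420H1, with 22 kb as the lowest siNC value and 6 kb as the highest siSUV420H1 value. Nearly all of the lower covered length in the knockdown thus lay in regions without a peak in DMSO libraries. Those regions were found only through peaks of the siRNA arm. Some were found through siNC peaks alone: those in DCN (mean 6.75 kb with siNC), in LUM (2 kb) and at 91030001 to 91035000 (1.25 kb). A lower knockdown value was fixed in advance for these, so the contrast is in large part built in. Outside the stretch, the region 21.7 kb below EPYC had a peak in every DMSO library. It covered 10 kb ± 0.816 with siNC and 2 kb ± 4 with siSUV420H1. The split uses the DMSO libraries, so it says nothing about where the mark differed between DMSO and A-196.

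**Figure D2:**
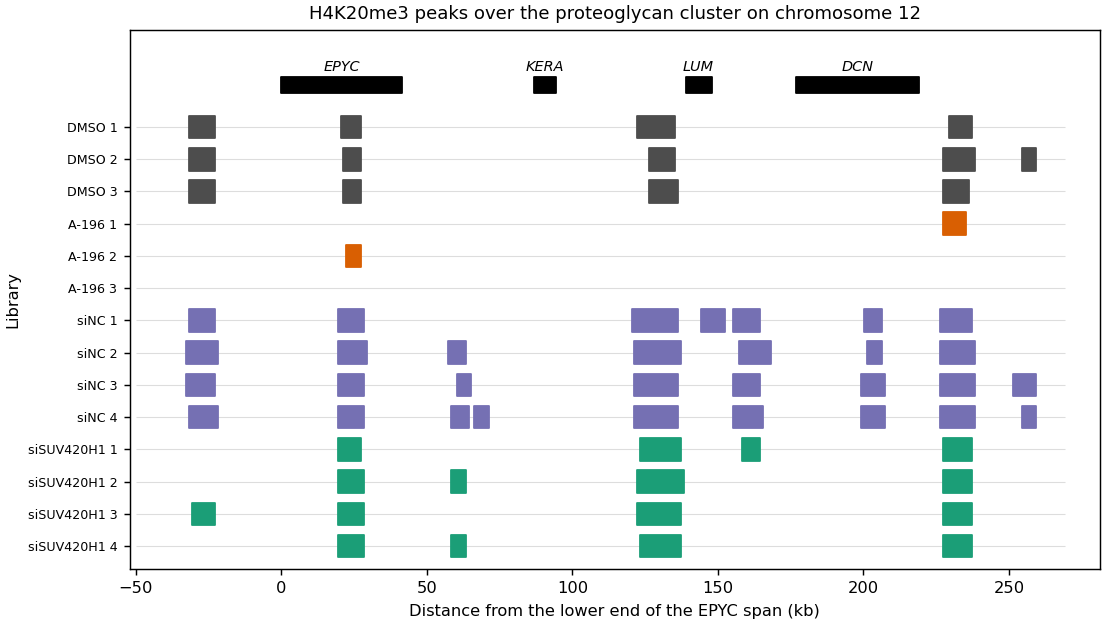
H4K20me3 peaks (coloured bars) in each of the 14 libraries over EPYC, KERA, LUM and DCN, against the distance in kb from the lower end of the EPYC span; black bars are annotated gene spans. The domains in EPYC, between KERA and LUM and beyond DCN are present in every control and every siSUV420H1 library, while those between LUM and DCN and inside DCN are regular in siNC only, and A-196 replicate 3 has no peak in the stretch drawn.

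Over the list, 3 of the 7 genes (ACTA2, FAS and EPYC) had all A-196 values below all DMSO values, where 5.51% of all coding genes did (6.05% without A-196 replicate 2). Scaled to equal genome totals the members numbered 2, since A-196 replicate 2 then stood at 5.89 kb for EPYC, above the DMSO libraries at 5.02 to 5.6 kb. In the siRNA arm 4 of the 7 (ACTA2, FAS, PECAM1 and DCN) had all siSUV420H1 values below all siNC values, where 6.74% of all coding genes did. The opposite order was found for 0 members in either arm with lengths as called. A mark in all controls with none in the treated libraries was found for 0 members with A-196 (1.78% of all coding genes), for 4 with siSUV420H1 (2.98%) and for 0 in both arms together (0.498%). Without A-196 replicate 2 the first of these counts was 3, again ACTA2, FAS and EPYC, and that of all 19866 coding genes was 450 in place of 353. A mark in all treated libraries with none in the controls was found for 0 members in either arm (0.81% of coding genes with A-196 and 0.342% with siSUV420H1). The members were chosen with these contrasts known, so nothing about them as a list can be read from these shares. Counting only peaks of at least 10 kb, the members with non-overlapping lower values numbered 0 in both arms. Members marked in every siNC and no DMSO library were PECAM1 and DCN, a pattern shown by 3.28% of coding genes, and 0 members had the reverse (0.72%). Among the 18 peak regions within 50 kb of the 3 places, 1 was present in all controls and absent from all treated libraries of both arms, the one in the ACTA2 and FAS overlap, and 1.38% of merged regions genome-wide were (4.76% for the inhibitor arm and 9.67% for the siRNA arm taken alone). The regions present in all siNC and no DMSO libraries numbered 3 of the 18, against 9.75% genome-wide. Across genes marked in any library of an arm, the median difference was -6 kb over 4 members and 1.19 kb over 5613 genes with A-196, and -6.88 kb over 6 members and -1.25 kb over 3959 genes in the knockdown. Without A-196 replicate 2 the medians with A-196 were -9 kb over 3 members and -0.62 kb over 4011 genes, so the sign over all genes turned with that library.

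**Figure D3:**
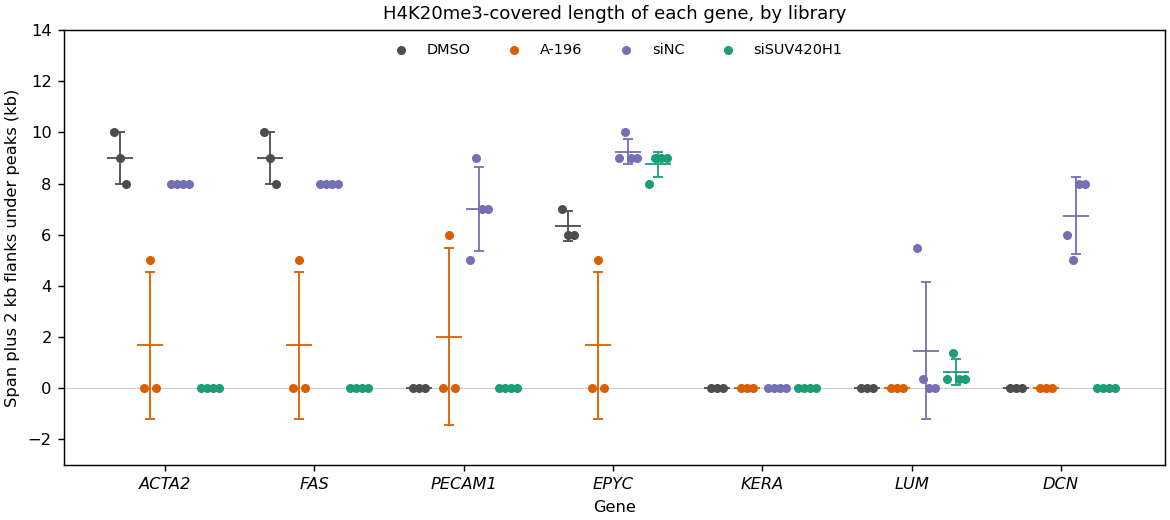
Length of each gene's span plus 2 kb flanks under H4K20me3 peaks (kb, vertical axis) for the 7 genes (horizontal axis); points are libraries, horizontal ticks are group means and error bars are 1 SD. ACTA2 and FAS are at 8 to 10 kb in every control library and at 0 kb in all 4 siSUV420H1 libraries, EPYC stays at 8 to 9 kb with siSUV420H1, and DCN and PECAM1 are above 0 kb in siNC but not in DMSO.

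By the percent of the extended span under peaks over all 14 libraries, each of ACTA2, PECAM1, DCN and EPYC was set beside the coding genes of other chromosomes with an extended span of at least 10 kb. The 3 genes closest to ACTA2 were SCN7A, a sodium channel gene, DRC1, which encodes a part of the ciliary dynein regulatory complex, and PMPCB, which encodes a subunit of the mitochondrial processing peptidase. Their mean absolute differences from ACTA2 were 1.29, 1.34 and 1.39 percentage points. SMAP2, ASIP, which encodes the agouti signalling protein, and the kinase gene VRK1 were closest to PECAM1, at 0.524, 0.576 and 0.676 points. RNF175, LPXN, which encodes leupaxin, and CIMIP6 were closest to DCN, at 0.506, 0.643 and 0.687 points. EPYC had SGPP1, a sphingosine-1-phosphate phosphatase gene, APPBP2 and LYPLA1, a lysophospholipase gene, at 2.13, 2.3 and 2.49 points. Of these 12 genes, SGPP1 covered 16.7% of its extended span with DMSO, 0% with A-196 and 20.9% in both siRNA groups, beside EPYC at 14%, 3.68%, 20.4% and 19.3% in DMSO, A-196, siNC and siSUV420H1. Genes with no peak in any library stood 3.22 points from PECAM1, 4.16 from DCN, 7.59 from ACTA2 and 15.1 from EPYC. The distances of different members are therefore not comparable. These likenesses share libraries and genome totals and are a description only.

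A further 7 lists held 109 genes and were drawn up from general knowledge of the cell types, with earlier results of these data known. They were read with an exact two-sided permutation test of covered length, with Benjamini-Hochberg adjustment. The test was run for every coding gene marked in any library of the arm. No gene passed a threshold of 0.05 in either arm. With 3 libraries against 3 the smallest possible exact p is 0.1, so 0 of 5613 genes had an unadjusted p under 0.05, and the smallest adjusted p was 0.428. In the siRNA arm the smallest exact permutation p was 0.0286, reached by 1749 of 3959 genes (1336 lower and 413 higher with siSUV420H1). The smallest adjusted p there was 0.0647. The test takes the 4 libraries of a group as independent, which is not known with 3 dishes for each condition. Since the lists were chosen with results known and no gene passed, the values below are descriptions too.

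Over all coding genes the mean share marked was 11.8% with DMSO, 13.6% with A-196, 16% with siNC and 11.8% with siSUV420H1, and the counts of marked genes below stand beside these shares. Among endothelial genes other than PECAM1, siNC cells were marked at 6 to 8 of 20 and siSUV420H1 cells at 2 to 4, with DMSO cells at 2 to 5 and A-196 cells at 2. ERG, an endothelial transcription factor gene, was at 64 kb ± 4.36 in DMSO cells against 14 kb ± 13.1 under A-196 (SD, n = 3; exact permutation p = 0.1, adjusted p = 0.428). In the siRNA arm ERG was at 57.5 kb ± 8.81 and 6.75 kb ± 0.957 (SD, n = 4, exact permutation p = 0.0286, adjusted p = 0.0647). ERG was named because its groups did not overlap, which fixes the exact p of each arm at its smallest possible value. CD34, a sialomucin of endothelial and blood progenitor cells, had 14.3 kb ± 3.51 under peaks with DMSO, against 0 kb in each A-196 library. ENG, which encodes endoglin, was at 6.75 kb ± 1.5 with siNC and 0 kb in each siSUV420H1 library, the same means as DCN. The angiopoietin receptor gene TEK was at 12.5 kb ± 2.42 and 1.25 kb ± 2.5 in the siRNA arm. CDH5, which encodes VE-cadherin, went the other way, at 5.25 kb ± 3.77 with siNC and 10.2 kb ± 1.26 with siSUV420H1.

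Of the 14 other small leucine-rich proteoglycan genes, 1 was marked in each DMSO library, 0 to 3 in A-196 libraries and 0 in every library of the siRNA arm. The one with groups apart was ECM2, at 8 kb ± 1.73 in DMSO cells against 0.818 kb ± 1.42 under A-196 (SD, n = 3). Fibroblast and matrix genes were marked at 2 of 20 with DMSO, 3 or 4 with A-196, 3 or 4 with siNC and 3 with siSUV420H1. FAP, a fibroblast surface protease gene, was at 25.8 kb ± 0.577 in DMSO cells against 12.1 kb ± 2.31 under A-196, and PDGFRA, which encodes a receptor for platelet-derived growth factor, was at 20.5 kb ± 1.71 with siNC and 10.2 kb ± 3.2 with siSUV420H1. Of 15 smooth muscle and pericyte genes, 1 to 3 were marked in any library. CALD1, which encodes caldesmon, was at 44.5 kb ± 12.1 and 8.5 kb ± 3.12 in the inhibitor arm and at 60 kb ± 2.58 and 45.5 kb ± 4.36 in the siRNA arm. DES, the desmin gene, was at 0.624 kb in each siNC and 0 kb in each siSUV420H1 library. Since no peak was narrower than 5 kb, the DES value was a peak edge in the 2 kb flank, outside the gene's span.

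Death receptor genes other than FAS were marked at 2 or 3 of 14 in every group. TNFSF10, which encodes the ligand TRAIL, was at 15.3 kb ± 0.577 in DMSO cells against 1.81 kb ± 2.71 under A-196. RIPK1, a kinase of death receptor complexes, was at 9 kb in each siNC and 0 kb in each siSUV420H1 library. The TRAIL receptor gene TNFRSF10B was at 24 kb in each siNC and 25 kb in each siSUV420H1 library, a step of 1 on the peak grid. Leukocyte genes were marked at 0 to 2 of 12, with no gene whose groups were apart. In the squamous list TP63, the regulator of squamous identity, was at 222 kb ± 16.6 in DMSO cells against 78.6 kb ± 28 under A-196, and at 123 kb ± 4.57 with siNC and 54 kb ± 3.5 with siSUV420H1. DSP, which encodes desmoplakin, was at 1.33 kb ± 1 with DMSO (0.33 to 2.33 kb) and 0 kb in each A-196 library. These DSP values too were peak edges that lay mostly in the 2 kb flank. Over the 109 genes, 8 were lower in every A-196 and 10 in every siSUV420H1 library than in all controls, and 0 and 2 were higher, against 5.51% and 6.74% lower and 1.09% and 2.08% higher among all coding genes.

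**Figure D4:**
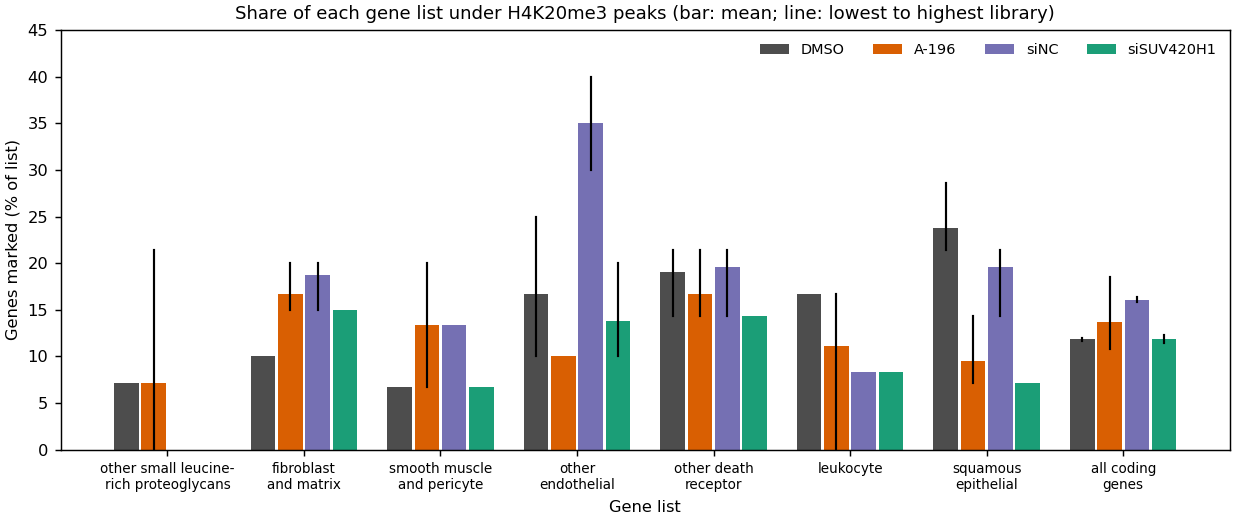
Percent of each gene list marked (at least 200 bp under H4K20me3 peaks, vertical axis) by list (horizontal axis) and group; bars are means over libraries and black lines run from the lowest to the highest library. Endothelial genes other than PECAM1 stand at a mean of 35% with siNC and 13.8% with siSUV420H1, where all coding genes stand at 16% and 11.8%, and other proteoglycan genes stand at 0% in both siRNA groups.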

How the data were processed

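CUT&RUN libraries for H4K20me3 from HN-SCC-151 cells were grouped by their titles (3 DMSO, 3 A-196, 4 siNC, 4 siSUV420H1); 10 IgG, H3K4me3 and H3K27me3 samples were not analysed here. What the authors deposited is a list of broad peaks per library, as start and end positions alone. The build (hg38) and the tools (bedtools 2.30.0, Picard 2.27.3, Bowtie, cutadapt 4.4) come from the submitters' processing notes. Duplicates had been removed and calling was done library by library against the IgG library of the arm, per the labels of the lists; the caller was not given in the sources used here. A high calling threshold or lower depth can turn a weak domain into 0 kb.

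Covered length was computed with Python 3.11.15 and numpy 2.4.6 over RefSeq spans of GRCh38 (1-based) plus 2 kb on each side. The table used has no exons. Coding genes on scaffolds were left out. Merged regions are unions of all peaks of the 14 libraries. Of the 7 genes, 3 (ACTA2, FAS and EPYC) had entries in the RefSeq promoter table. The members and lists were chosen with earlier results of these data known. Besides the members and any coding gene sharing a merged region with one (none did), the text names per list and arm up to 4 genes, first those marked in all controls and no treated library, then the opposite case, then those whose groups did not overlap, each by size of difference, and the 3 genes most like ACTA2, PECAM1, DCN and EPYC. 1 gene that this rule selects is not reported here. STAMBPL1, CCER1 and MILR1, neighbours of the 3 places, were named after the peaks were seen. Coverage was checked on simulated intervals, and the calls and the exact test on simulated covered lengths per gene, without peaks or their grid. Alternatives were the flank, peak width and merging, the group summary, scaling to genome totals, the smallest overlap, left-out libraries and the replicate block. The shares and medians over all coding genes without A-196 replicate 2 were added after seeing the data.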

Additional observations from a re-analysis of the deposited data

Results flagged for a closer look

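In 4 sets of 4 libraries, 1 library lay far from the other 3 relative to the range of the set. Of the 18 sets examined, 10 had no spread at all, and in 3 of the 4 the other 3 libraries were equal, which any step on the peak grid produces; the usual chance rate of about 1 in 20 does not apply to such values. For LUM these were siNC replicate 1 at 5.49 kb, which had a peak of its own, and siSUV420H1 replicate 2 at 1.37 kb. For EPYC they were siNC replicate 2 at 10 kb and siSUV420H1 replicate 1 at 8 kb, each a single step of 1 kb from the other 3 libraries. The causes were not tested.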

How the results depend on the processing

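Of 462 recomputed values, 419 did not reverse and moved by no more than the spread between replicates (counts by no more than 1.5 times), 39 moved further and 4 reversed. A fall to 0 was not counted as a reversal: PECAM1 with A-196 went from 2 kb to 0 kb with wide peaks and by group medians. The 419 also include values at 0 kb throughout, such as KERA, and replicate-block differences, which cannot change. Their share is therefore no measure of how stable the results are. With peaks of at least 10 kb only, the difference over the chromosome 12 stretch was -7.67 kb with A-196 (-15.3 kb with all peaks) and -8.5 kb with siSUV420H1 (-21.25 kb), and over ACTA2 and FAS it was -3.33 kb with A-196 (-7.33 kb) and 0 kb with siSUV420H1 (-8 kb). PECAM1 was then at 0 kb in the knockdown (-7 kb), and the members lower in all treated libraries numbered 0 in both arms (3 and 4), as did the members with a mark in all siNC and no siSUV420H1 library (4). Scaled to equal totals, the chromosome 12 difference was -12.1 kb with A-196 and -6.19 kb with siSUV420H1. The knockdown differences were then -6.66 kb at ACTA2 and FAS and -5.81 kb at PECAM1. Scaling could not remove these, since it leaves the siSUV420H1 values of 0 kb unchanged. A flank of 10 kb gave 1 member with a mark in all DMSO and no A-196 library (0 with 2 kb). For LUM the knockdown difference (-0.84 kb) turned to 0.529 kb with wide peaks and 0.186 kb by group medians, and that of EPYC (-0.5 kb) to 3.29 kb after scaling; the cause was not tested. Scaling also left 2 members lower in all A-196 libraries (3), without EPYC. Leaving out 1 library at a time, members with a mark in all DMSO and no A-196 library numbered 0 to 3, the highest without A-196 replicate 2, and LUM in the knockdown ran from -1.33 to 0.498 kb, the highest without siNC replicate 1. No coding gene passed the exact test under any alternative run. In the inhibitor arm none could, since the smallest possible exact permutation p there is 0.1. The exact test of the replicate block, with 3 or 4 pairs, could not reach 0.05 in either arm.

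A replicate block by library number cannot change the differences of -15.3 and -21.25 kb over the chromosome 12 stretch, since the groups of an arm are equal in size. Members lower in every same-numbered pair numbered 3 and 4, and groups that do not overlap fix these as the lowest possible counts. Correlations across genes between the deviations of same-numbered libraries ran from -0.14 to -0.00658 in the inhibitor arm and from -0.511 to 0.138 in the siRNA arm. With so few libraries these values cannot settle whether the numbers pair them.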
